A study of Mus musculus with 2 samples.

Results

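The collagen genes of the embryonic mouse midface were followed across the cell types of 2 single-cell RNA libraries. They were the genes whose symbol is Col, a type number, the letter a and a chain number with nothing after it, without Col17a1. This gave 43 of the 27998 genes counted in both libraries, in 9 structural families. The tissue was the lambdoid junction of embryos at embryonic day 11.5, microdissected from where the nasal and maxillary prominences of the upper face meet. One library came from wild-type embryos. The other came from embryos labelled Crect; ROSA26-lacZ, which carry an ectodermal Cre recombinase transgene and a lacZ reporter at the ROSA26 locus, and it is called the Crect lacZ library here. Both were C57BL/6J, and each was made with the 10x Genomics 3′ v2 kit from a pool of 4 to 5 embryos, so there was 1 library per genotype and no replicate of either.

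Collagens are triple-helical proteins of the extracellular matrix, built from chains of the same or of different kinds, and each kind of chain has its own gene. Fibrillar collagens form the cables of connective tissue, network collagens such as type IV form basement membranes, and fibril-associated, beaded-filament and transmembrane types link fibrils to each other and to cells. In the face at this stage, crest-derived mesenchyme lies under a sheet of ectoderm and is crossed by vessels, and both sheets of cells rest on basement membranes.

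Stretches upstream of 6 genes on which the class comparisons turn are shown, to set the regulatory DNA of the fibrillar genes of the mesenchyme beside that of the basement membrane genes of the endothelium and ectoderm. They are RefSeq sequence of GRCm38.p6, read 5′ to 3′ on the strand of the gene, without transcribed exon of the gene itself, and the genes were chosen after their values had been seen. Capitals mark matches, on either strand, to 3 short motifs that do not overlap one another: the CCAAT box, the GC box GGGCGG, and ACAAAG, which is the core of sites of SOX and TCF factors. Col1a2 lies on chr6:4505370-4505492, Col3a1 on chr1:45311288-45311537, Col15a1 on chr4:47207762-47208011 and Col18a1, on the minus strand, on chr10:77166549-77166780. Col18a1 has another RefSeq window, chr10:77113656-77113955, which is not shown and holds no match to the 3 motifs. Which of its starts was used was not tested. The stretches of Col4a1 (minus strand, chr8:11312952-11312981) and Col4a2 (plus strand, chr8:11312755-11312784) were set at 30 bases that hold motif matches. Each lies in an exon of the other gene. The Col1a2 stretch is the longest part before its RefSeq start that is outside exons. It lies inside the gene as GENCODE places it, with a start at 4504814.
Col1a2: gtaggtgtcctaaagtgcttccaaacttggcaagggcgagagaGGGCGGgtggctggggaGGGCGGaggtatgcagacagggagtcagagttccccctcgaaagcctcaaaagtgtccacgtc
Col3a1: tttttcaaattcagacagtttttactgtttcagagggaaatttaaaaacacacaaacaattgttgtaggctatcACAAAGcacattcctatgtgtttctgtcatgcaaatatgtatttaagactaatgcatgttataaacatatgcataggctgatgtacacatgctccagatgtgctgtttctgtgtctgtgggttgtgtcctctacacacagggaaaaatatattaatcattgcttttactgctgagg
Col15a1: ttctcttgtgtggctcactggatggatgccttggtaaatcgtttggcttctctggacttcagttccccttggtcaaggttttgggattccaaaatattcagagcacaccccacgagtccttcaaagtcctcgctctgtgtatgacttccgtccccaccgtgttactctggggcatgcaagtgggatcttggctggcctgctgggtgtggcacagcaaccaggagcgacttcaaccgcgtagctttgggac
Col18a1: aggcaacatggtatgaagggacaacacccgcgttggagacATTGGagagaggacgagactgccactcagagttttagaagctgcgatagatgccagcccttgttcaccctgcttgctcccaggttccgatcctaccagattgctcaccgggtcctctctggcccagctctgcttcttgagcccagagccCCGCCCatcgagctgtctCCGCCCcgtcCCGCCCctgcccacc
Col4a1: cttgcccgggATTGGcgagccaaggggctc
Col4a2: cgCCGCCCgaggagctccCCAATttgttgg

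Col4a1 and Col4a2, the chains of the most widespread basement membrane collagen, are transcribed away from each other. Their annotated starts are 21 bases apart. Col4a5 and Col4a6 on chromosome X are also arranged head to head, with 1343 bases between their starts. Over windows of 250 bases before to 50 bases after a start, 34 of the 43 collagens had 37 RefSeq windows. Of these windows, 12 (32.4%) held CCAAT on either strand, beside 37.4% of 32851 windows of all genes. GGGCGG was in 23 of 37 (62.2%, beside 35.7%), and ACAAAG was in 4 of 37 (10.8%, beside 18.7%). These are matches of letters in a window and nothing was tested about binding.

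The wild-type library held 7405 cells and the Crect lacZ library 6318 after filters on mitochondrial share and doublets, with 113931936 and 115498250 unique molecular identifiers (UMIs, each marking 1 captured transcript). The median depth was 13822 UMIs per wild-type cell and 17272 per Crect lacZ cell. The libraries shared 76 cell barcodes, 0.954% of wild-type and 1.10% of Crect lacZ barcodes. Cells were grouped into classes by clustering without collagen genes and named "-like" from marker genes. Each class held its defining markers. Prrx1 of the mesenchyme was at 248 and 220 CPM (counts scaled to the total UMIs of the class, as parts in 1e6) in the mesenchyme-like cells, Epcam at 418 and 401 CPM in the ectoderm-like cells, Cdh5 at 530 and 476 CPM in the endothelium-like cells and Sox10 at 230 and 264 CPM in the glia-like cells of the neural crest, wild-type first. In that order of libraries there were 5595 and 5027 mesenchyme-like, 949 and 747 ectoderm-like, 207 and 118 endothelium-like, 28 and 22 glia-like, 30 and 28 macrophage-like and 227 and 136 erythroid-like cells. Erythroid-like cells, which are not expected to make collagen, were used as a guide to the background of free RNA. Their CPM also depends on their own RNA, since erythroid markers summed to 606183 and 580818 CPM in them. Multiples of the erythroid level are therefore rough, and free RNA per droplet was not measured. A pair of values below is always wild-type first, then Crect lacZ, and levels are CPM of the summed UMIs of a class. The UMIs come from 3′ ends, so levels are compared between classes and not between genes.

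Collagen transcripts made up 0.145% and 0.149% of the UMIs of mesenchyme-like cells and 0.160% and 0.164% of those of endothelium-like cells. Ectoderm-like cells had 0.061% and 0.060%, and glia-like cells 0.0625% and 0.0703%. The lowest shares were 0.0126% and 0.0151% in erythroid-like cells and 0.0130% and 0.0158% in macrophage-like cells. Of all collagen UMIs in cells under the mitochondrial limit, Col1a2, the second chain of type I collagen of skin and bone, gave 21.7% and 24.6%. Col3a1, which forms the type III fibrils of soft connective tissue, gave 21.7% and 19.0%. Col26a1, the single chain of type XXVI collagen, gave 9.80% and 11.1%. At the other end, 10 of the 43 genes had under 100 UMIs over both libraries, and none was without a UMI in both. The 10 were Col5a3, Col11a2, Col4a3, Col4a4, Col6a4, Col6a5, Col6a6, Col10a1, Col20a1 and Col28a1. Col10a1, the collagen of hypertrophic cartilage, had 2 and 0 UMIs, and Col4a3 of the kidney filter had 3 and 0.

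In the mesenchyme, of the fibril regulators, Col5a2 was at 67.4 and 63.4 CPM and Col11a1 at 33.1 and 24.6 CPM, and the fibrillar chain Col27a1 was at 20.1 and 16.7 CPM. Col23a1, a membrane collagen, stood at 24.0 and 23.7 CPM and Col25a1 at 19.5 and 24.4 CPM. Col7a1, whose fibrils anchor epithelia, was at 3.52 and 2.97 CPM and Col22a1 of tissue junctions at 2.38 and 2.22 CPM. Col16a1 was at 3.44 and 4.01 CPM and the fibrillar chain Col24a1 at 4.32 and 3.46 CPM.

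In mesenchyme-like cells 15 collagens reached 20 CPM in both libraries, in glia-like cells 8, in ectoderm-like cells 7, in endothelium-like cells 6, and in macrophage-like and erythroid-like cells 2 each. Col1a2 was at 359 and 402 CPM in the mesenchyme and at 23.4 and 29.0 CPM in erythroid-like cells. With every cell thinned to 3000 UMIs, 65.4% and 68.3% of mesenchyme-like cells had a Col1a2 UMI, beside 6.17% and 8.82% of erythroid-like cells. Unthinned, the shares were 97.0% and 98.5% of mesenchyme-like cells (median 13355 and 17287 UMIs) and 47.6% and 37.5% of erythroid-like cells (median 29449 and 13545.5 UMIs). Col1a2 at 29.5 and 33.7 CPM in the ectoderm was 1.26 and 1.16 times the erythroid level. Above the erythroid level in both libraries, with 95% counting intervals of the ratio above 1, were 11 collagens in the ectoderm, 6 in the endothelium, 11 in the glia and 1, Col15a1, in the macrophages. The share of all genes that pass the same rule was not counted. These numbers are therefore no result about collagens as a group.

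**Figure D1:**
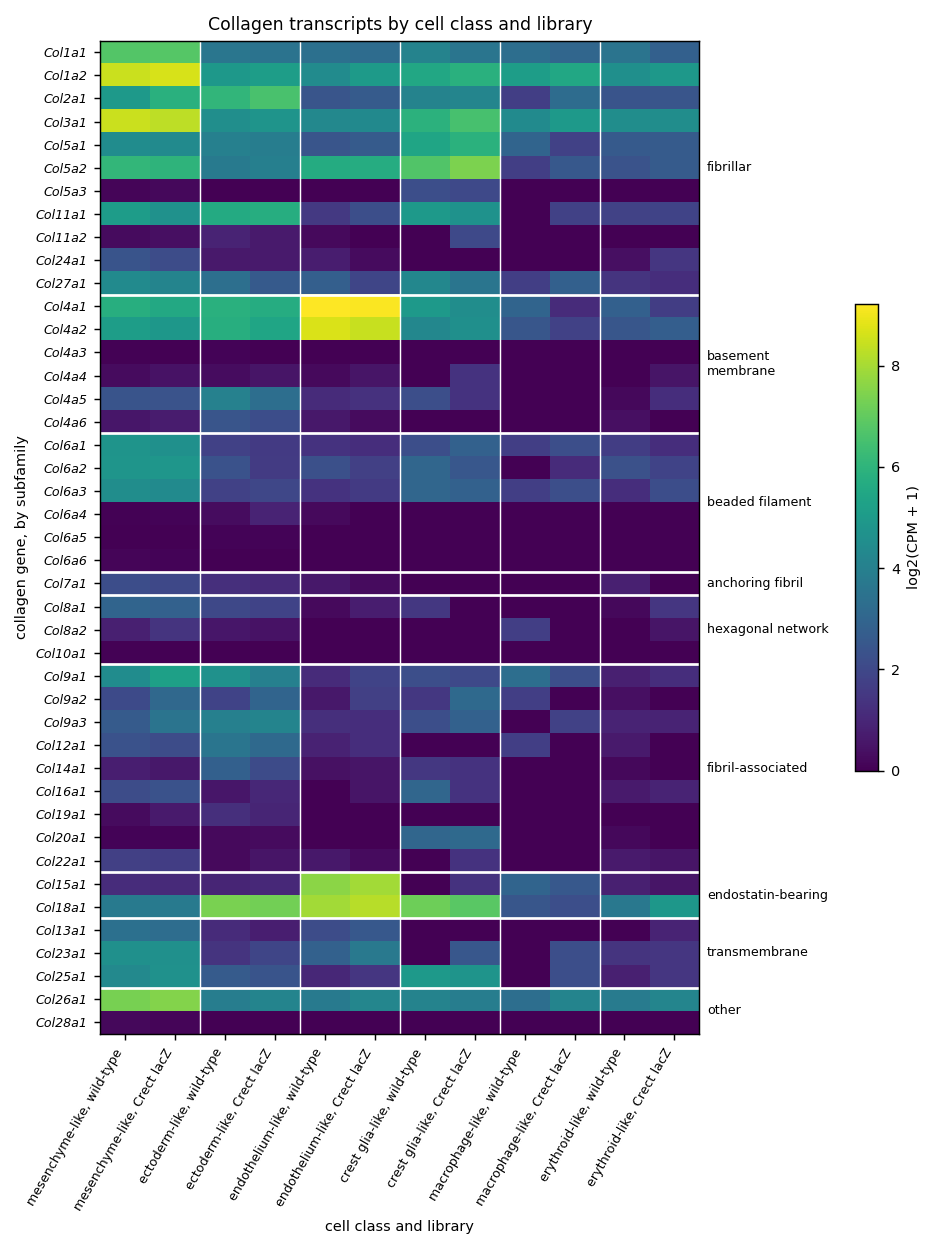
Levels of the collagen genes (vertical, ordered by family) in each cell class and library (horizontal), as the colour of log2(CPM + 1), brighter for higher. Type I, III and XXVI collagens are brightest in the mesenchyme columns, Col4a1, Col4a2, Col15a1 and Col18a1 are brighter in the endothelium columns than in the mesenchyme columns, and Col18a1 is also brighter in the ectoderm and glia columns than in the mesenchyme columns.

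The first comparison asked which collagens set the ectoderm apart from the mesenchyme beneath it. The ectoderm-like cells had more Col18a1, Col4a5 and Col4a6, and less of both type I chains, Col3a1, Col5a2, Col6a1, Col6a2, Col6a3 and Col26a1. Each comparison of classes used 4 sums, 1 per class and library, in edgeR's quasi-likelihood test with a term for the library and Benjamini-Hochberg adjustment over all genes. Genes were called at a 2-fold change with an adjusted p under 0.05. Of the 43 collagens 36 passed the filter on low counts, which Col5a3, Col4a3, Col6a5, Col6a6, Col10a1, Col20a1 and Col28a1 did not. Of the 36, 9 were called higher in the ectoderm and 18 lower, where 13.6% of all 15111 genes tested were called higher and 8.62% lower. The median log2 fold of the tested collagens was -0.84, beside -0.03 for all tested genes. An unadjusted p under 0.05 was found for 31 of the 36, beside 8582 of all 15111 genes. Clustering and testing used the same cells. With the library term, p-values measure only how the class difference varied between these 2 pooled libraries, with that spread shared across genes. They are too small as evidence for embryos in general.

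Among the chains of basement membranes, Col18a1, whose end fragment is endostatin, was at 162 and 151 CPM in the ectoderm and at 12.8 and 12.8 CPM in the mesenchyme. The ectoderm was higher in both libraries, and the fold was 12.4 (95% interval 10.9 to 14.1, adjusted p 1.9e-08). Reads of Col18a1 may be shared with Slc19a1, which it overlaps on chromosome 10, since the treatment of strand was not given in the sources used here. Its erythroid level was 12 and 28.6 CPM, and the mesenchyme was close to it in the wild-type and below it in the Crect lacZ library. Macrophage-like cells had less Col18a1, on few UMIs, so the background of this gene is not settled. Col4a5 and Col4a6 are the head-to-head chains that form basement membranes of skin and kidney, and they are named here after their values were seen. Col4a5 stood at 15.6 and 9.18 CPM in the ectoderm against 4.21 and 4.10 CPM in the mesenchyme, 2.98-fold higher. Col4a6 stood at 4.36 and 3.57 CPM against 0.470 and 0.625 CPM, 7.34-fold higher. The main type IV pair was not called: Col4a1 was at 56.4 and 50.8 CPM against 53.8 and 46.7 CPM (fold 1.08, 95% interval 0.971 to 1.21). For Col4a2 the values were 53.7 and 41.7 CPM against 33.7 and 28.7 CPM, a 1.55-fold difference (1.35 to 1.76) that is under the 2-fold limit.

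The fibrillar chains went mostly the other way: of 10 tested, 6 were lower in the ectoderm, 1 was higher and 3 were not called. Col3a1 was at 22.7 and 26.2 CPM in the ectoderm against 360 and 312 CPM in the mesenchyme, 13.5-fold lower (95% interval 11.56 to 15.9). Col1a2 was 11.9-fold lower (10.5 to 13.5). Col1a1, the first type I chain, was at 11.3 and 10.4 CPM against 107 and 111 CPM, 9.88-fold lower. The ectodermal levels of these 3 were close to those of erythroid-like cells, at 1.04 to 1.68 times them over both libraries. All 9 markers of the mesenchyme were detected in the ectoderm, where they summed to 487 and 478 CPM, against 3266 and 2775 CPM in the mesenchyme and 183 and 187 CPM in erythroid-like cells. Their part in the ectodermal collagen levels was not tested. Col2a1, the fibril chain of cartilage, was not called in the ectoderm at 65.6 and 94.5 CPM against 29.9 and 56.99 CPM (fold 1.93, 95% interval 1.62 to 2.30). Against the mesenchyme without its sub-cluster 9, whose cells were almost all of the Crect lacZ library, the ratios were 2.21 and 2.39, without a test. Ectodermal Col2a1 was 15.3 and 21.5 times the erythroid level. Col11a1, which nucleates cartilage fibrils, was at 48.3 and 53.2 CPM against 33.1 and 24.6 CPM, also under the 2-fold limit at 1.80-fold. Both cartilage-type chains were thus well above background in an epithelium.

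All 3 tested chains of type VI collagen with over 100 UMIs, the beaded filaments around cells, were lower in the ectoderm. Col6a1 was at 2.42 and 1.97 CPM against 26.4 and 23.9 CPM, 11.2-fold lower. Col6a2 was 8.71-fold and Col6a3 7.78-fold lower, both with under 5 CPM in the ectoderm of each library. Of the transmembrane collagens, which sit in the cell membrane, all 3 were lower, led by Col23a1 at 1.59 and 2.77 CPM against 24.0 and 23.7 CPM (11.03-fold). Col26a1 was at 13.96 and 17.0 CPM against 161 and 179 CPM, 10.9-fold lower, and at 1.06 and 0.991 times the erythroid level. Fibril-associated collagens were split, with 4 of 8 tested higher, 2 lower and 2 not called. All 4 higher ones (Col9a3, Col12a1, Col14a1 and Col19a1) were under 20 CPM, and Col9a3 and Col12a1 reached 16.8 and 10.8 CPM at most. The other called collagens not named so far were Col11a2 and Col6a4 on the higher side and Col22a1, Col24a1, Col16a1, Col5a2, Col8a2, Col7a1, Col27a1, Col8a1, Col13a1 and Col25a1 on the lower, with folds of 2.28 to 9.28 on the lower side. Col6a4 rested on 4 and 12 UMIs.

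Endothelium-like cells, compared with the same mesenchyme sums, had the largest difference of any collagen. Of 33 collagens tested, 4 were called higher and 24 lower, where 12.7% of all genes were called higher and 16.4% lower. The median log2 fold was -2.40, or -2.32 with Col8a2 (0 UMIs in the endothelium) at its bound, beside -0.09 for all genes. An unadjusted p under 0.05 was found for 29 of the 33, beside 9037 of all 14410 genes. The 4 were all chains of vessel basement membranes. Col15a1, a relative of Col18a1 found in vessel and muscle basement membranes, was at 194 and 243 CPM against 1.27 and 1.16 CPM, 204-fold higher (95% interval 173 to 241). It was seen in 35.3% and 54.2% of endothelium-like cells thinned to 3000 UMIs, beside 0.429% and 0.358% of mesenchyme-like and 0% (95% exact interval up to 1.61%) and 0.735% of erythroid-like cells, and in 94.7% and 95.8% of endothelium-like cells unthinned. Its gene overlaps Gm12426. Macrophage-like cells had 6.85 and 4.87 CPM from 3 and 4 UMIs.

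Col18a1 rose to 246 and 299 CPM in the endothelium, 24.2-fold above the mesenchyme (21.2 to 27.6). Col4a1 was at 595 and 568 CPM against 53.8 and 46.7 CPM, 13.2-fold higher (11.68 to 15.0). Col4a2 was at 413 and 343 CPM, 13.8-fold higher (12.2 to 15.7). Both libraries gave the same direction for the 4 genes. Col4a1 and Col4a2 overlap each other only at their starts, and the UMIs come from 3′ ends, annotated at chr8:11198423 and chr8:11449287. Col4a1 also overlaps Gm15418, and Col4a2 overlaps Gm15419.

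Of 9 fibrillar chains tested in the endothelium, 8 were lower and Col5a2 was not called. Col5a2, a type V chain that regulates the width of type I fibrils, was at 49.9 and 51.7 CPM against 67.4 and 63.4 CPM (fold 0.886, 95% interval 0.776 to 1.01, adjusted p 0.11), and at 12.04 and 9.80 times the erythroid level. Col3a1 was 15.3-fold lower and Col1a2 13-fold lower, and both were at 0.863 to 1.08 times the erythroid level. Col1a1 was 10.4-fold and Col11a1 9.47-fold lower. Col6a1 (15.5-fold) and Col6a3 (10.8-fold) of the beaded filaments, Col9a1 of the type IX chains that coat cartilage fibrils (13.7-fold) and Col26a1 (9.81-fold) were lower as well. The 9 mesenchyme markers summed to 181 and 212 CPM in the endothelium, at the erythroid level of 183 and 187 CPM. Of the remaining 16 called lower, 14 had fitted folds of 2.32 to 14.9. Col16a1, which lies on the surface of fibrils, was lower on 0 and 2 UMIs, and its Crect lacZ ratio was 0.108 (95% counting interval 0.0130 to 0.393). Col8a2, a chain of the short network collagen VIII, had 0 UMIs in both endothelial sums and was at least 4.18-fold lower, with a floor of 3 UMIs over both. Col13a1 and Col23a1 are both transmembrane: Col13a1 was not called (3.41 and 4.76 CPM against 9.56 and 8.75), and Col23a1 was 2.32-fold lower.

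Glia-like cells were 28 and 22, so their sums were small, at 553478 and 641268 UMIs. Of 36 collagens tested, 4 were called higher and 12 lower, where 4.78% of all genes were called higher and 5.44% lower. The median log2 fold was -1.18, or -0.57 with members at 0 UMIs in the glia at their bound, beside -0.13. An unadjusted p under 0.05 was found for 22 of the 36, beside 3584 of all 14047 genes. With DESeq2 the count was 5 higher and 8 lower, beside 526 and 336 of all 14047 genes. Of its calls over all genes 61.0% were higher, against 46.8% with edgeR. Col18a1 was at 145 and 115 CPM, 10.0-fold higher than in mesenchyme (7.75 to 12.9). The type V chains were also higher: Col5a2 was at 105 and 170 CPM, 2.10-fold higher (1.72 to 2.58), and Col5a1 was at 41.6 and 57.7 CPM against 21.4 and 20.3 CPM, 2.39-fold higher (1.73 to 3.31). Col5a2 was 25.3 and 32.2 times its erythroid level. Col20a1, a fibril-associated collagen, was called higher on 4 and 5 UMIs, against 5 and 6 UMIs in the far larger mesenchyme sums.

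Among the lower collagens of the glia, Col3a1 was at 59.6 and 92.0 CPM, 4.38-fold lower than in the mesenchyme, yet 2.72 and 4.19 times the erythroid level. Col1a2 was at 45.2 and 56.1 CPM, 7.55-fold lower, and Col1a1 was 8.20-fold lower. Col26a1 was 11.4-fold lower, at 1.23 and 0.819 times the erythroid level. Col6a1 (5.03-fold) and Col6a2 (4.75-fold) were lower, each on 2 to 4 UMIs per library. Col23a1, at 0 and 3 UMIs and against 1888 and 2125 UMIs in the mesenchyme, and Col9a1, at 2 and 2 UMIs, were lower. The ratio of Col23a1 was 0.197 (95% counting interval 0.0407 to 0.577) in the Crect lacZ library. Col13a1 had 0 UMIs in both glial sums and was at least 3.63-fold lower. The 9 mesenchyme markers summed to 289 and 275 CPM in the glia, above the 183 and 187 CPM of erythroid-like cells. Of them, Prrx1 alone was at 3.61 and 10.9 CPM there, under its erythroid level of 13.5 and 19.8 CPM. The part of mesenchymal RNA in the glial collagen levels was not tested.

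**Figure D2:**
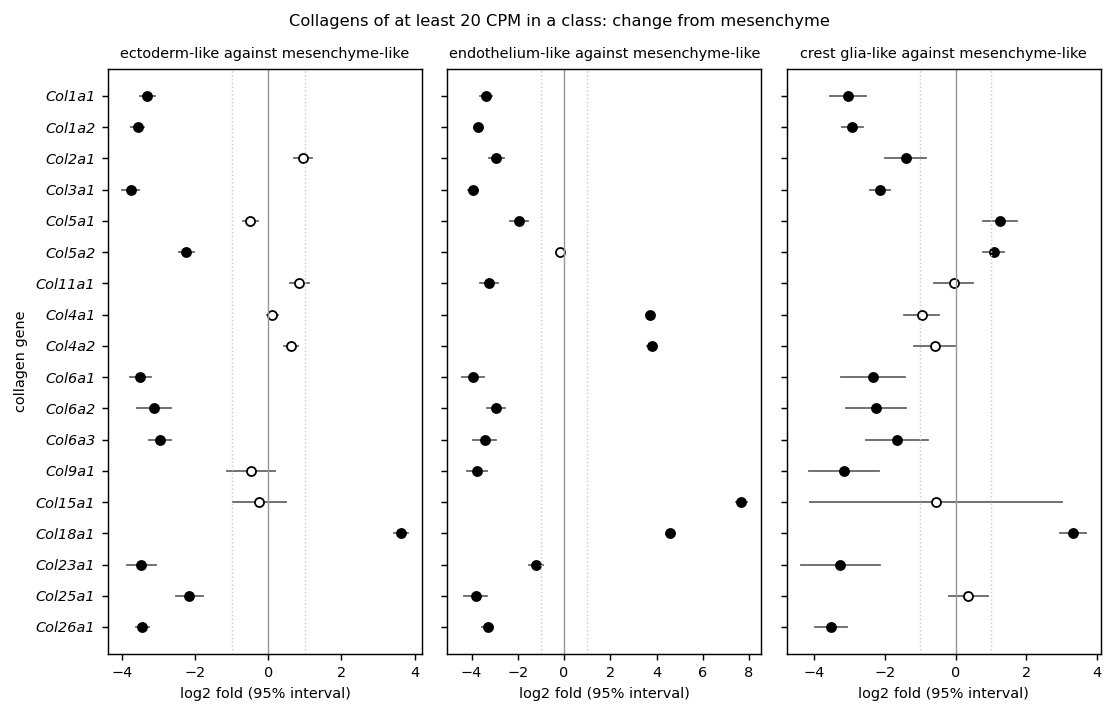
Log2 fold of the collagens that reached 20 CPM in both libraries of a class, in ectoderm-like, endothelium-like and glia-like cells against the same mesenchyme-like sums (horizontal axis, each panel with its own range), with 95% intervals, filled points for called genes and open points for the others, and dotted lines at the 2-fold limit. Col18a1 is to the right in all 3 panels and Col15a1, at 7.67, lies farthest right in the endothelium.

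Genes that modify, process, anchor or bind collagens were taken from lists chosen with the families. The counts of calls below stand beside the shares of all genes tested. These were 13.6% higher and 8.62% lower in the ectoderm, 12.7% and 16.4% in the endothelium, and 4.78% and 5.44% in the glia. Whether a list differed from these shares was not tested. Of 15 basement membrane partners tested in the ectoderm, 9 were higher and 4 lower than in the mesenchyme. Lama5, a laminin chain, was at 26.6 and 37.7 CPM against 1.70 and 1.92 CPM, 17.8-fold higher, and Agrn, a heparan sulfate proteoglycan, was 3.02-fold higher. Nid1, the nidogen that links laminin to type IV collagen, was 9.83-fold lower in the ectoderm. In the endothelium 7 of 13 were higher and 2 lower, led by Hspg2, the perlecan core protein, at 210 and 239 CPM against 16.1 and 14.2 CPM (16.9-fold). In the glia 7 of 13 were higher and 1 lower, led by the laminin chains Lama4 (10.1-fold) and Lamc1 (7.13-fold).

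The collagen receptors of the discoidin family divided by class. Ddr1 was at 59.0 and 54.7 CPM in the ectoderm against 4.94 and 4.27 CPM in the mesenchyme, 12.5-fold higher. Ddr2 was at 5.65 and 5.69 CPM against 55.8 and 55.2 CPM, 9.64-fold lower. Over the list, 3 of 8 receptors were higher and 2 lower in the ectoderm, 4 and 3 of 8 in the endothelium, and 2 and 1 of 7 in the glia. Of 7 genes that remove propeptides, 4 were lower in the ectoderm, including Pcolce, an enhancer of procollagen cleavage, at 10.8 and 8.02 CPM against 92.1 and 81.4 CPM. The same list gave 4 lower of 7 in the endothelium and 1 of 6 in the glia. Of 9 crosslinking and turnover genes, 7 were lower in the ectoderm, led by the protease Mmp2 (4.08-fold), 5 were lower and 1 higher in the endothelium, and 3 were lower in the glia.

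Of 19 chain modification and folding genes tested in the ectoderm 4 were lower, at a list median log2 fold of -0.38. In the endothelium 4 of 19 were higher and 5 lower. The higher ones included Plod1, a lysyl hydroxylase (2.59-fold), and Fkbp10, a collagen chaperone (2.53-fold), and the lower ones the prolyl hydroxylase subunit P4ha2 (5.08-fold) and Plod2 (3.25-fold). Of the small proteoglycans of fibrils, Lum was 4.70-fold and Bgn 4.54-fold lower in the ectoderm, where 5 of 9 were lower and 2 higher. In the endothelium 4 of 7 were lower, including Lum (9.94-fold), and 1 was higher, Bgn, at 109 and 101 CPM (3.74-fold). In the glia 2 of 7 were lower, including Lum (5.55-fold), and 1 was higher, Bgn (2.54-fold). Of the export genes, 1 of 5 was lower in the ectoderm and 1 of 5 higher in the endothelium.

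Within the mesenchyme the collagens were not spread evenly. The mesenchyme-like cells were clustered again into 13 sub-clusters, numbered 0 to 12, and the following levels are descriptions without a test. Col8a1, the main chain of type VIII collagen, was at 31.7 and 40.1 CPM in sub-cluster 5, whose leading genes were Hey2, Lef1 and Stmn2. The median over sub-clusters was 4.72 and 3.27 CPM. Col6a1 and Col6a2 were highest in the same sub-cluster, at 58.2 and 71.9 CPM and at 57.1 and 80.3 CPM. They were also high in sub-cluster 2, at 45.8 and 59.7 CPM for Col6a1, against 10.1 and 9.16 CPM in sub-cluster 6. Col26a1 was highest in sub-cluster 3 (262 and 368 CPM), led by Cxcl14 and Dlx5, and so was Col13a1 (20.0 and 22.1 CPM).

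Col25a1, a transmembrane collagen known from motor innervation, was at 94.6 and 63.2 CPM in sub-cluster 1, with Gsc and Ebf1 among its leading genes, and at 40.6 and 50.4 CPM in sub-cluster 8, led by Foxp2 and Irx3. Its median was 8.94 and 15.1 CPM. Col1a1 was lowest in sub-cluster 1, at 29.4 and 33.7 CPM, where the median was 104 and 120 CPM. Col9a1 was at 58.4 and 47.3 CPM in sub-cluster 4, led by Fst and Shox2, and at 47.5 and 51.5 CPM in sub-cluster 6, against a median of 13.8 and 15.3 CPM. By contrast Col1a2 spanned only 2.38 and 1.95 times from the lowest to the highest sub-cluster. Both libraries named the same highest sub-cluster for Col8a1, Col6a1, Col6a2, Col13a1, Col25a1 and Col26a1.

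**Figure D3:**
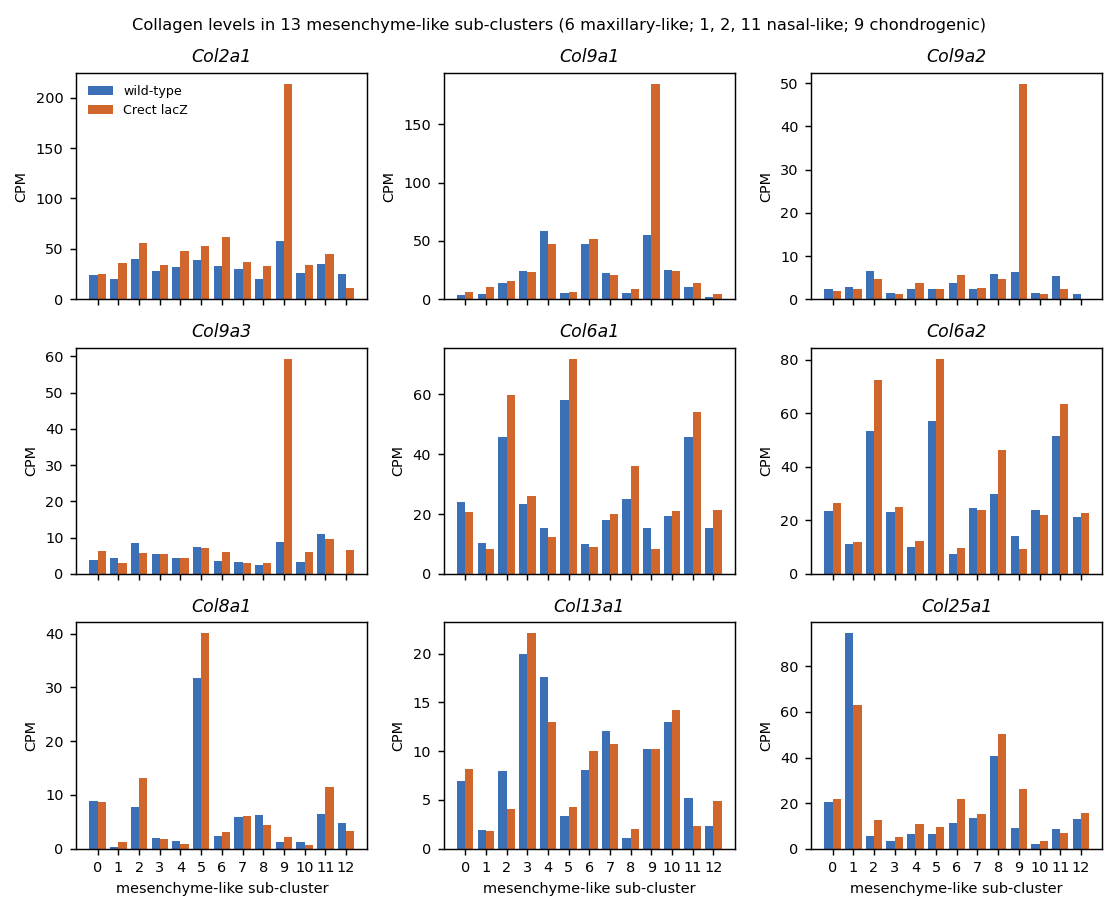
CPM of selected collagens (vertical axes start at 0) in the 13 mesenchyme-like sub-clusters (horizontal), with a bar for each library. Col8a1 and Col6a1 stand out in sub-cluster 5, Col25a1 in sub-cluster 1, and Col9a1 in sub-clusters 4, 6 and 9, with its highest bar in sub-cluster 9 of the Crect lacZ library.

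Sub-cluster 9 was scored as chondrogenic, and it was almost all of 1 library. It held 57 wild-type cells (0.770% of the library) and 619 Crect lacZ cells (9.80%). The Crect lacZ cells had 526 CPM of Sox9 and 50.04 CPM of Sox6, regulators of cartilage formation, where the other mesenchyme of that library had 43.8 and 3.81 CPM. The wild-type cells had only 65.1 CPM of Sox9 and 8.94 CPM of Sox6, where the other wild-type mesenchyme had 28.1 and 5.06 CPM. The name thus rests mostly on the Crect lacZ cells. Both genes are in the marker list that scored the sub-cluster, so their levels are no separate check of the name. Acan, a proteoglycan of mature cartilage, was at 0 and 0.446 CPM. A cluster with so few cells of 1 library may be a feature of the other library rather than a cell type, which cannot be told apart here.

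In the 4 sums of sub-cluster 9 and the rest of the mesenchyme, 6 of 35 tested collagens were called higher in sub-cluster 9 and 4 lower, where 2.68% of all genes were called higher and 1.11% lower. The median log2 fold was -0.05 beside 0.01. An unadjusted p under 0.05 was found for 21 of the 35, beside 2798 of all 14277 genes. Without the library term edgeR's test called 0 collagens higher and 0 lower, beside 40 and 20 of all genes. DESeq2 called 0 higher and 2 lower, beside 154 and 76. In these 2 fits 16 and 13 collagens had an unadjusted p under 0.05, for which no count over all genes is given. The ratios within each library are given for this reason. Col2a1, the fibril chain of cartilage, was at 57.5 and 214 CPM in sub-cluster 9 against 29.7 and 39.6 CPM, a ratio of 1.94 in the wild-type and 5.396 in the Crect lacZ library. Col9a1 was at 54.9 and 185 CPM against 21.1 and 20.2 CPM, ratios of 2.61 and 9.14. Its partner chains followed: Col9a2 had ratios of 2.01 and 16.8, and Col9a3 had ratios of 1.70 and 11.63. In wild-type cells Col9a2 and Col9a3 rested on 5 and 7 UMIs. Col19a1 and Col8a2, also called higher, were under 5 CPM. On the lower side, Col6a1 was at 15.3 and 8.25 CPM against 26.5 and 25.7 CPM (2.86-fold), and Col6a2 was 3.05-fold lower. Col8a1 and Col24a1 were lower on 1 and 19 and on 3 and 11 UMIs. Of 18 chain modification genes tested 2 were higher and 1 lower, and of 5 export genes 2 were higher. P4ha3, a prolyl hydroxylase subunit, was at 28.09 and 40.34 CPM in sub-cluster 9 against 13.05 and 13.16 CPM (2.74-fold). Creb3l2, a transcription factor of the secretory route, was at 28.09 and 45.25 CPM against 20.92 and 16.67 CPM (2.24-fold). Its difference was thus smaller in the wild-type library.

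The question of where along the face a collagen lies was asked with maxillary-like sub-cluster 6 (504 and 436 cells) against sub-clusters 1, 2 and 11 (1494 and 1037 cells), scored as nasal-like. The maxillary name rested on Lhx6, Barx1, Osr2 and Shox2 among its leading genes. The nasal name was weaker: its scores were 0.342, 0.344 and 0.412 against a naming minimum of 0.3, and none of the leading 10 genes of these sub-clusters was a nasal marker. Of 31 collagens tested, 3 were called higher in the maxillary-like cells and 6 lower, where 2.01% and 3.06% of all genes were called. The median log2 fold was -0.24 beside -8.3e-04 for all genes. An unadjusted p under 0.05 was found for 20 of the 31, beside 3261 of all 12659 genes. Without the library term edgeR called 1 collagen higher and 3 lower, beside 51 and 64 of all genes.

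Col9a1 was at 47.5 and 51.5 CPM in the maxillary-like cells against 8.91 and 12.4 CPM, 4.81-fold higher (95% interval 4.17 to 5.54). Of the 6 type VI chains 3 were tested, and these 3 were lower. Col6a2 was at 7.33 and 9.53 CPM against 35.4 and 34.4 CPM (3.97-fold, 3.34 to 4.74), Col6a1 was 2.95-fold and Col6a3 2.40-fold lower. The nasal-like sub-clusters differed in these chains: Col6a1 was at 10.4 and 8.28 CPM in sub-cluster 1, beside 10.1 and 9.16 CPM in the maxillary-like cells, and at 45.8 and 59.7 CPM in sub-cluster 2 and 45.9 and 54.0 CPM in sub-cluster 11. Col6a2 was at 11.2 and 11.9 CPM in sub-cluster 1 and at 53.5 and 72.3 CPM in sub-cluster 2. Col25a1 was at 11.4 and 21.8 CPM against 43.3 and 43.1 CPM, 2.51-fold lower. Among the nasal-like sub-clusters Col25a1 was at 94.6 and 63.2 CPM in sub-cluster 1 but at 5.33 and 12.5 CPM in sub-cluster 2 and at 8.80 and 6.90 CPM in sub-cluster 11. With classes made from another part of the UMIs its direction reversed, to a log2 fold of 1.13 (adjusted p 0.020). With collagens among the clustering genes it was 0.19 (adjusted p 0.34). The others called were Col13a1 and Col19a1 on the higher side and Col12a1 and Col7a1 on the lower, all at most 10.0 CPM. The 9 fibrillar chains tested all stayed under the 2-fold limit. Of 12 basement membrane partners 2 were lower, including Sparc, a collagen-binding glycoprotein, at 103 and 103 CPM against 261 and 236 CPM.

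In the ectoderm-like cells 9 sub-clusters had 20 or more cells in both libraries, and collagens also differed between them, again as descriptions. Col9a1 was at 167 and 130 CPM in sub-cluster 4, led by Dkk4, Adamts9 and Dkk2, with a median of 5.13 and 7.24 CPM over the sub-clusters. Col2a1 (127 and 194 CPM) and Col4a5 (37.6 and 29.7 CPM) were highest in the same sub-cluster, and so was Col4a6 (15.4 and 19.8 CPM). Col11a1 was highest in sub-cluster 6, scored as olfactory-like and led by Rprm, at 154 and 114 CPM. Col18a1 was highest in sub-cluster 5, led by Cxcl14, Rprml and Sostdc1, at 244 and 314 CPM, and lowest in sub-cluster 7, at 41.7 and 81.8 CPM. In periderm-like sub-cluster 9, the flat outer layer, Col9a1 was at 1.05 and 1.32 CPM, Col18a1 was at 185 and 235 CPM and Col2a1 at 9.45 and 15.8 CPM. Col12a1, which binds type I fibrils, was highest in sub-cluster 1, at 27.8 and 31.5 CPM.

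Between the genotypes there is 1 library on each side, so ratios of Crect lacZ to wild-type are given with intervals for counting error only and without a test. In the mesenchyme 30 collagens had 100 or more UMIs. Their median ratio was 0.944 beside 0.943 for all genes with 100 UMIs, 5 were 1.5-fold or more higher and none was 1.5-fold lower, where 4.66% of all genes were higher and 9.33% lower. The 5 were Col9a2 (3.20 and 7.66 CPM, ratio 2.39), Col8a2 (0.737 and 1.60 CPM, ratio 2.17), Col9a3 (5.30 and 10.6 CPM, ratio 1.99), Col2a1 (29.9 and 56.99 CPM, ratio 1.90) and Col9a1 (21.4 and 36.7 CPM, ratio 1.71). These include all type IX chains and the type II chain, and sub-cluster 9 differed in size between the libraries. Without it only Col8a2 remained past 1.5-fold, at 1.81 on 56 and 105 UMIs, where 3.64% of all genes were higher and 9.64% lower. Col9a1, Col9a2 and Col9a3 were then at 0.959, 0.935 and 0.971, and Col2a1 at 1.33.

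In the ectoderm 20 collagens had 100 UMIs, of which 1 was 1.5-fold or more higher in Crect lacZ and 4 lower, where 4.14% of all genes were higher and 7.32% lower. Col9a2 was at 2.59 and 6.92 CPM (ratio 2.67, 95% interval 1.85 to 3.91). It was highest in ectodermal sub-cluster 6 (20.3 and 15.5 CPM), which held 31 wild-type and 68 Crect lacZ cells. The part of unequal sub-clusters in this ratio was not tested. Lower were Col14a1 (ratio 0.536), which binds type I fibrils, Col27a1 (0.549), a fibrillar chain of cartilage, Col4a5 (0.591) and Col9a1 (0.629, at 24.2 and 15.2 CPM). Ectodermal sub-cluster 4, where Col4a5 and Col9a1 were highest, held 107 of 949 wild-type and 49 of 747 Crect lacZ cells, and its part in these ratios was not tested. In the endothelium 8 collagens had 100 UMIs and 1 was past 1.5-fold, Col1a2 at 20.8 and 31.4 CPM (ratio 1.51), where 2.32% of all genes were higher and 9.61% lower. Its level was 0.888 and 1.08 times that of erythroid-like cells. The vessel chains Col4a1 and Col15a1 had ratios of 0.954 and 1.25.

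**Figure D4:**
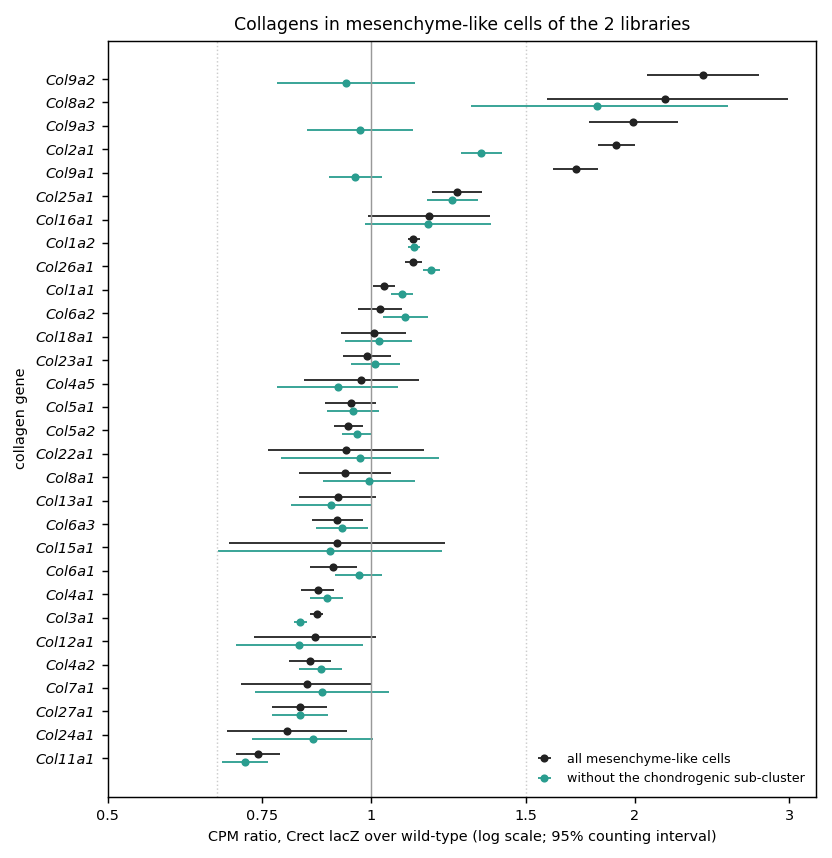
Ratio of Crect lacZ to wild-type CPM (horizontal, log-scaled axis) of the collagens with 100 or more UMIs in mesenchyme-like cells, with 95% counting intervals, over all of these cells (black) and without the chondrogenic sub-cluster 9 (green), and dotted lines at 1.5-fold. The type IX chains and Col2a1 lie at 1.71 to 2.39 in the whole mesenchyme and at 0.935 to 1.33 without sub-cluster 9.

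Pairs of chains were compared as ratios of their UMIs within a class. Each pair is of one collagen type, except Col3a1 and Col5a2, which belong to types III and V. The capture of each chain is unknown, so a ratio is compared between classes and is not a stoichiometry. Col1a1 to Col1a2 was 0.301 and 0.292 in the mesenchyme without sub-cluster 9 and 0.151 (95% counting interval 0.113 to 0.198) and 0.140 (0.127 to 0.153) within it. With doublets kept, the ratios within it were 0.0921 and 0.105. Other sub-clusters also had low ratios, 0.135 and 0.128 in sub-cluster 1 and 0.183 and 0.178 in sub-cluster 0, and it reached 0.477 in wild-type sub-cluster 7 and 0.446 in Crect lacZ sub-cluster 3. Col5a1 to Col5a2 was 0.318 and 0.320 in the mesenchyme, 1.20 and 0.955 in the ectoderm, 0.397 and 0.339 in the glia, and 0.0887 (0.0570 to 0.133) and 0.10 (0.0631 to 0.153) in the endothelium. Endothelial Col5a1, at 4.43 and 5.19 CPM, was at the erythroid level of 5.04 and 5.27 CPM, so the endothelial ratio has a background level as its numerator. In the ectoderm Col5a1 was 3.04 and 2.64 times and Col5a2 3.08 and 2.76 times the erythroid level, whose own ratio was 1.21 and 1.

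Col3a1 to Col5a2 was 5.34 and 4.91 in the mesenchyme, 1.78 and 1.80 in the ectoderm, 0.569 and 0.541 in the glia and 0.379 and 0.381 in the endothelium, where it was 0.705 and 0.479 with doublets kept. In the ectoderm it was 2.84 and 2.52 with doublets kept. Col3a1 was near the erythroid level in the endothelium (0.863 and 0.895 times it) and in the ectoderm (1.04 and 1.19 times it), so these ratios too rest on a background numerator, while Col3a1 of the glia was above it. Col4a1 to Col4a2, from the shared start region shown above, was 1.60 and 1.63 in the mesenchyme and 1.44 and 1.65 in the endothelium, and it was 1.05 (0.957 to 1.15) and 1.22 (1.09 to 1.36) in the ectoderm. Col4a5 to Col4a6 was 8.95 and 6.55 in the mesenchyme and 3.57 and 2.57 in the ectoderm. Col6a1 to Col6a2 was 0.968 and 0.857 in the mesenchyme. Col9a1 to Col9a2 was 6.64 and 6.81 in the mesenchyme without sub-cluster 9, and in the ectoderm it was 9.34 (6.83 to 13.1) in the wild-type and 2.20 (1.72 to 2.83) in the Crect lacZ library.

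**Figure D5:**
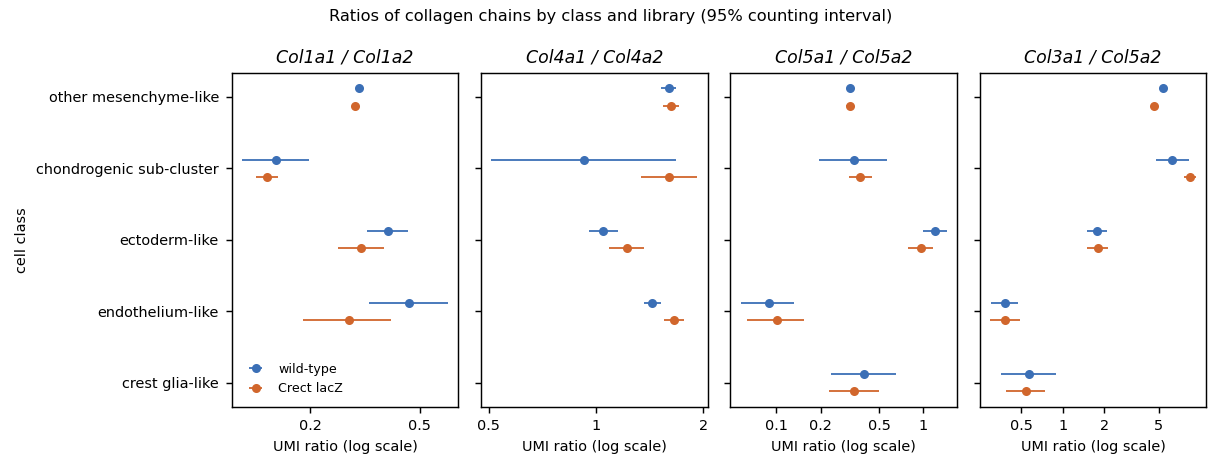
Ratio of the UMIs of pairs of chains (horizontal, log-scaled axes) in each class and library, with 95% counting intervals, where the chondrogenic sub-cluster is sub-cluster 9 and the other mesenchyme is the rest, and a ratio is left out where a chain had under 20 UMIs. Col5a1 to Col5a2 is near 1 in the ectoderm and near 0.1 in the endothelium, and Col4a1 to Col4a2 lies lower in the ectoderm than in the mesenchyme.

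Genes whose levels ran most like 3 collagens were found over 57 sums of 1 cluster and library each, among 5901 genes with a mean of 20 CPM or more, as Pearson's r of log2(CPM + 1). The sums share libraries, classes and depth, so r is a description. Col1a2 ran with Col3a1 (0.98), Col26a1 (0.96) and Col1a1 (0.95), and less with Col5a2 (0.77). The genes outside the family closest to it were Cdh11 (0.97), a mesenchymal cadherin, Pth1r (0.96), Pdgfrb (0.96), Pdgfra (0.96) and Tbx2 (0.96). Col4a1 ran with Col4a2 (0.94), and no other gene came closer to Col4a1 than Tspan6 (0.85), followed by Mpzl1 (0.83), Ccnjl (0.82), Apbb2 (0.82) and Fam171a2 (0.81). For Col2a1 the values were lower, with Col11a1 (0.83), Meis2 (0.83), a homeobox factor, Tenm3 (0.82), Tpbg (0.81), Serinc2 (0.81) and Ptprd (0.78).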

How the data were processed

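Per the labels, the data are 10x Genomics 3′ v2 libraries, and the authors deposited raw counts of UMIs per gene and barcode for each of the 2 libraries. Cell Ranger 2.0 and mm10 are named in the submitters' processing notes, and the treatment of strand was not given in the sources used here. Barcodes with over 10% mitochondrial UMIs (57 wild-type, 207 Crect lacZ) were left out. Scrublet (scanpy 1.11.5) gave doublet scores, and the highest scores were removed at 0.8% per 1000 barcodes (504 and 369). Cells were clustered on 2000 variable genes without collagens, 30 components (20 within a tissue), 8 neighbours per library and the Leiden algorithm (leidenalg 0.10.2).

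The members and gene lists were chosen with earlier results of these data known. The neighbour method, the naming score and its minimum of 0.3 were set after cluster markers had been seen in 3 clustering runs. Collagen values were looked at after the third.

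Counts were summed per class and library and tested with edgeR 4.0.16 in R 4.3.3 (TMM, filterByExpr, 1 residual degree of freedom, spread shared across genes). The prior degrees of freedom were infinite except for the ectoderm (6.94). Where they were infinite, p-values carry little of a single gene's own spread. Folds have 95% intervals from the fit. Simulated data with 200 changed genes gave back 73%, 71%, 39%, 66% and 84% of 2-fold changes in the ectoderm, endothelium, glia, sub-cluster 9 and maxillary comparisons. Here a gene counted at an adjusted p under 0.05 in the right direction, without the 2-fold limit used for calls. Apart from random spread, the simulated libraries differed only in depth. Values are printed for up to 8 called collagens each way with 20 CPM in the higher class, up to 2 genes per list and direction, and collagens past 1.5-fold between genotypes. Alternatives were DESeq2 1.42.0, other scaling, filter, block, doublet, clustering and UMI-split settings. Gene positions are those of GENCODE vM21. Intervals of counts are exact (scipy 1.17.1) and cover counting error only.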

Additional observations from a re-analysis of the deposited data

Results flagged for a closer look

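For Col9a1, the ratio of ectoderm-like to mesenchyme-like CPM was above 1 in one library and below 1 in the other: 1.13 (95% counting interval 1.01 to 1.26) in the wild-type and 0.416 (0.360 to 0.478) in the Crect lacZ library. The difference between the libraries was not tested, since each genotype has 1 library. Against the mesenchyme without sub-cluster 9, chosen after seeing the data, the ratios were 1.15 (1.03 to 1.28) and 0.755 (0.650 to 0.872). Mesenchymal Col9a1 was at 21.4 and 36.7 CPM and ectodermal Col9a1 at 24.2 and 15.2 CPM.

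For Col1a2, the ratio of maxillary-like to nasal-like CPM also lay on opposite sides of 1, at 0.919 (0.877 to 0.964) in the wild-type and 1.09 (1.05 to 1.14) in the Crect lacZ library. The gene was not called in that comparison (log2 fold 0.05, adjusted p 0.66), and the difference between the libraries was not tested.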

How the results depend on the processing

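Each class comparison was repeated under 8 alternatives. Of 715 repeats of a single called collagen, 642 kept their direction and stayed called, 71 kept the direction and lost the call, and 2 reversed. Both reversals were Col25a1 in maxillary-like against nasal-like cells, at a log2 fold of 0.19 with collagens among the clustering genes and 1.13 with classes from one part of the UMIs and sums from the other. For the ectoderm, endothelium and glia, the numbers of collagens called stayed within 1.5 times under every alternative run. For sub-cluster 9, 6 higher and 4 lower became 0 and 2 with DESeq2 and 0 and 0 with no library term, the fit with no replicate block. Over all genes, 382 higher and 159 lower became 154 and 76 with DESeq2 and 40 and 20 with no library term. With the Crect lacZ library alone, an alternative chosen after seeing the data, there is 1 sum per class, so only its ratios above are given. For the maxillary comparison, 3 higher and 6 lower became 1 and 3 with no library term, and 3 lower with the UMI split. Over all genes, 254 higher and 387 lower became 51 and 64 with no library term and 150 and 160 with the UMI split. The cause was not tested. Between genotypes, the 5 mesenchymal collagens past 1.5-fold became 1 without sub-cluster 9, the 1 of the ectoderm became 2 with TMM scaling, and the 1 of the endothelium became 0 with doublets kept. Scaling by library size alone moved the median log2 fold of all genes in the endothelium from -0.09 to -0.28, and its folds are relative to that. Leaving out a library leaves 1 sum per class and no test, so only the ratios within each library stand for it. Glial values rest on 50 cells or fewer, and levels near the erythroid one cannot be told from free RNA at this depth.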

Other observations

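Erythroid-like cells held Col18a1 at 12 and 28.6 CPM, from 81 UMIs in 67 of 227 wild-type cells and 65 UMIs in 52 of 136 Crect lacZ cells. No cell had more than 4 and 3 UMIs. The tenth of cells with the most Col18a1 held 45.7% and 41.5% of its UMIs, and for Col1a2 these shares were 39.9% and 43.9%. In macrophage-like cells Col18a1 was lower, at 4.56 and 3.65 CPM from 2 and 3 UMIs.

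Olfactory-like ectoderm, 300 and 389 cells, had Col2a1 at 58.3 and 85.7 CPM and Col18a1 at 88.6 and 90.8 CPM, with Col1a2 at 31.1 and 32.0 CPM, 1.33 and 1.10 times the erythroid level.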
